A study of Homo sapiens with 36 samples.

Results

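The interferon-stimulated genes examined here were 47 genes of the antiviral and inflammatory response to interferon, chosen by their symbols as interferon response factors and antiviral effectors, and all 47 were found among the 37549 genes with a symbol. RNA was sequenced from 3 B-cell lines, MEC1, JVM2 and EHEB, grown from patients with chronic B-cell leukaemia and used as models of chronic lymphocytic leukaemia. Each line received the vehicle DMSO, fludarabine at 50 µM, ibrutinib at 5 µM or idelalisib at 10 µM, with 48 h of exposure for MEC1, 72 h for JVM2 and 96 h for EHEB. Each of the 12 groups had 3 libraries, which gave 36 libraries in all. Fludarabine is a purine analogue that blocks DNA synthesis, ibrutinib inhibits Bruton tyrosine kinase and idelalisib inhibits the delta isoform of phosphatidylinositol 3-kinase. The study concerned the inactivation of drugs by glucuronidation in leukaemic B cells, with RNA sequencing of drug-treated lines as one of its parts. Each line is a single immortalised culture, and the line and the exposure time changed together, so that they cannot be told apart. The methods describe results in general as coming from repeated independent experiments but do not say how the 3 libraries of a group were obtained, so p-values measure the spread between these libraries.

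Interferons bind receptors at the cell surface and activate the Janus kinases, which phosphorylate transcription factors of the STAT family. With type I interferons, a complex that holds STAT2 and IRF9 binds the interferon-stimulated response element (ISRE), whereas interferon gamma acts mainly through factors that bind the gamma-activated site (GAS). The genes induced in this way encode proteins that sense viral RNA, block its translation or replication, tag proteins with ISG15 or amplify the response itself, as IRF1 and IRF7 do. B cells carry receptors for both kinds of interferon.

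Promoter windows were available in RefSeq (GRCh38.p14) for 37 of the 47 genes, each from 250 bases before to 50 bases after a transcription start. The other 10 genes were IFIT2, MX2, OAS2, OASL, IFITM2, IRF7, USP18, GBP2, GBP5 and TRIM22. The core letters of the ISRE, GAAANNGAA or TTCNNTTTC on the opposite strand, stood in the window of 28 of these 37 genes (75.7%) and of 2693 of all 27305 genes with a window (9.86%). The letters of the GAS, TTCNNNGAA, which read the same on both strands, stood in 11 of 37 (29.7%) and in 2560 of 27305 genes (9.38%). A motif can overlap another, as in EPSTI1, whose GAS and ISRE letters share bases. Windows that held a match are printed here for some of these genes, 30 bases each, 5′ to 3′ on the strand of the gene. The matching letters are in capitals. STAT2 and XAF1 were among the genes whose windows held neither motif, and IRF9, with GAS letters, is not printed. The first lines hold ISRE letters and the last pair hold GAS letters.
ISG15 (chr1:1013386-1013415, plus strand): aagggaaaccGAAACTGAAgccaaatttgg
IFIT1 (chr10:89392498-89392527, plus strand): tagctttagtTTCACTTTCccctttcggtt
IFIT3 (chr10:89332469-89332498, plus strand): ttccatcagtTTCACTTTCctttccccttt
RSAD2 (chr2:6865796-6865825, plus strand): agcgggaaacGAAAGCGAAgcgttgcgggg
DTX3L (chr3:122564322-122564351, plus strand): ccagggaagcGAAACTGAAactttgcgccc
GBP1 (chr1:89065315-89065344, minus strand): acgaagtactTTCAGTTTCatattactcta
GBP4 (chr1:89198926-89198955, minus strand): tgcatgtcctTTCAATTTCggttctcacag
EPSTI1 (chr13:42992272-42992301, minus strand): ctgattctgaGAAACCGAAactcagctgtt
LGALS3BP (chr17:78979962-78979991, minus strand): gtggtttctgGAAATCGAAagtagactctt
IRF1 (chr5:132490878-132490907, minus strand): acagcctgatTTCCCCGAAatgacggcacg
IFI35 (chr17:43006752-43006781, plus strand): aggcagggatTTCACGGAAatgaaagtgga
In ISG15 the capitals began 101 bases before the start, and they were the last of 3 overlapping matches. In IFIT1 they began 115 bases before the start, in IFIT3 50, in GBP1 126, in EPSTI1 50, in LGALS3BP 58, in IRF1 124 and in IFI35 22 bases before it. The match in GBP4 began 3 bases before the start. RSAD2 and CMPK2 lie head to head, and the match 79 bases before the start of RSAD2 is the same stretch of DNA that is read on the opposite strand in the window of CMPK2. The same holds for DTX3L and PARP9, whose windows share the match 6 bases before the start of DTX3L. A match describes letters in a window and not a bound site.

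The libraries held between 26590705 and 53538925 counts (median 42114145.5), and all 47 genes passed the filter on low counts in each line. The 7 B-cell markers examined were detected in all libraries. Their summed level with DMSO was 1170 to 1220 CPM (counts scaled to the library size) for MEC1, 1280 to 1310 for JVM2 and 1770 to 1840 for EHEB. With fludarabine MEC1 ran from 1000 to 1020 CPM, JVM2 from 672 to 733 and EHEB from 951 to 1070, and with the kinase inhibitors it lay between 1980 and 2190 in MEC1, 1520 and 1650 in JVM2 and 1780 and 2010 in EHEB. The part of this shift in the results below was not tested, and in bulk samples fewer cells of a kind and less RNA per cell cannot be told apart. The library numbers of DMSO and fludarabine followed each other within each line, and those of ibrutinib and idelalisib lay further on in the series. A difference between these runs of numbers and an effect of a kinase inhibitor against DMSO cannot be told apart. All 3 drug comparisons of a line share its DMSO libraries.

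With DMSO alone, the interferon-stimulated genes were highest in EHEB. By the mean CPM of the line, EHEB ranked first for 41 of the 47 genes, JVM2 for 4 and MEC1 for 2, and MEC1 ranked last for 29 and JVM2 for 18. The median of these means was 37.7 CPM in MEC1, 54.9 in JVM2 and 92.4 in EHEB. In edgeR's quasi-likelihood test, called at a Benjamini-Hochberg adjusted p under 0.05, 39 genes were higher and 3 lower in EHEB than in JVM2 (all genes tested: 29.9% and 29.6%), with a median log2 difference of 1.07 against 0.0030 over all genes. In MEC1, 40 genes were lower than in EHEB (35.8% of all genes) and none was higher (31.6%), with a median of −1.41 against −0.051. Against JVM2, 12 genes were higher in MEC1 (30.1%) and 24 were lower (33.7%), with a median of −0.36 against −0.015.

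**Figure D1:**
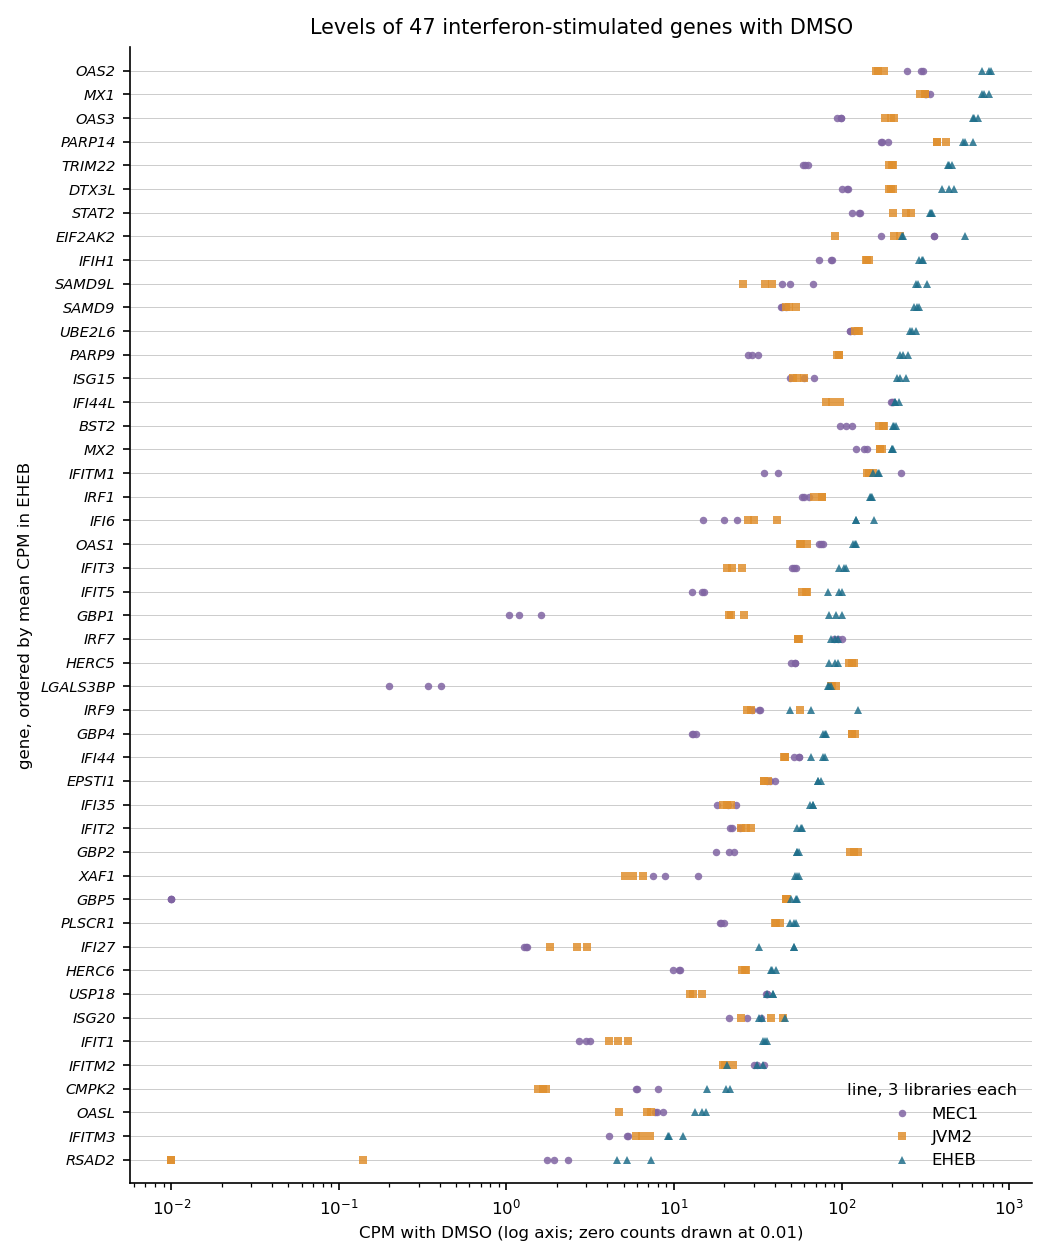
CPM of the 47 genes in each DMSO library on a log axis, 3 libraries per line, with genes ordered by their mean in EHEB and zero counts drawn at 0.01. The EHEB triangles lie furthest right for most genes, and the GBP5, LGALS3BP and GBP1 points of MEC1 stand apart at the left.

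GBP5, a guanylate-binding GTPase, had no counts in any of the 3 DMSO libraries of MEC1, 47.5, 46.4 and 46.8 CPM in JVM2 and 53.7, 53.9 and 49.9 CPM in EHEB. Against a floor of 3 counts per MEC1 library it was at least 697-fold higher in JVM2 and at least 780.0-fold higher in EHEB. LGALS3BP, a secreted glycoprotein that binds galectins, stood at 0.199, 0.338 and 0.406 CPM in MEC1, 92.5, 87.6 and 86.2 in JVM2 and 84.0, 86.9 and 82.8 in EHEB. GBP1, of the same family as GBP5, stood at 1.04, 1.61 and 1.19 CPM in MEC1, 26.2, 22.0 and 21.4 in JVM2 and 101, 92.0 and 84.3 in EHEB. For LGALS3BP the MEC1 libraries lay far below both other lines, which overlapped each other, and for GBP1 the 3 lines were fully separated. The log2 difference between MEC1 and EHEB was −8.07 ± 0.16 (SE, adjusted p = 1.62e-09) for LGALS3BP and −6.16 ± 0.18 (adjusted p = 8.09e-09) for GBP1.

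RSAD2, which encodes the antiviral enzyme viperin, had 0, 6 and 0 counts in the DMSO libraries of JVM2, against 105, 96 and 69 in MEC1 and 190, 311 and 243 in EHEB, so no fold change is given for JVM2. Its neighbour CMPK2, a mitochondrial nucleotide kinase, stood at 1.66, 1.72 and 1.55 CPM in JVM2, 6.02, 5.95 and 8.001 in MEC1 and 21.5, 20.3 and 15.8 in EHEB. IFI27, a small membrane protein of mitochondria, stood at 3.01, 2.62 and 1.81 CPM in JVM2, 1.28, 1.31 and 1.32 in MEC1 and 52.0, 32.3 and 52.3 in EHEB. Both genes were lowest in MEC1 or JVM2 and highest in EHEB without overlap, with log2 differences between EHEB and JVM2 of 3.54 ± 0.18 (adjusted p = 4.05e-07) and 4.20 ± 0.24 (adjusted p = 9.33e-07). The 3 genes that were lower in EHEB than in JVM2 were GBP2, GBP4 and HERC5, with log2 differences of −1.12, −0.56 and −0.35. The genes of MEC1 that stood above JVM2 included IFIT3 (1.20), USP18 (1.42) and IFI44L (1.16). Per kilobase of exon, ISG15 led in EHEB with 261 ± 15.8 CPM per kb (SD, n = 3), whereas BST2, which tethers budding virus to the cell surface, led in MEC1 with 96.9 ± 7.73 and in JVM2 with 158 ± 5.87.

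The drug comparisons asked how each agent changed these genes within a line. In MEC1 and JVM2 most of the genes rose with each of the 3 drugs, and in EHEB more genes fell than rose. With fludarabine, 33 of 47 genes rose and 3 fell in MEC1, beside 21.2% and 22.7% of all genes tested. The counts with ibrutinib in MEC1 were 33 up and 3 down (all genes: 23.7% and 23.9%), and with idelalisib 32 up and 4 down (27.6% and 27.4%). In JVM2 fludarabine raised 39 genes and lowered 2 (23.9% and 23.3%), ibrutinib raised 33 and lowered 2 (14.5% and 15.0%), and idelalisib raised 32 and lowered 5 (21.6% and 22.6%). In EHEB 9 genes rose and 22 fell with fludarabine (18.4% and 19.2%), 6 rose and 22 fell with ibrutinib (8.50% and 11.2%), and 4 rose and 28 fell with idelalisib (15.1% and 18.2%).

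**Figure D2:**
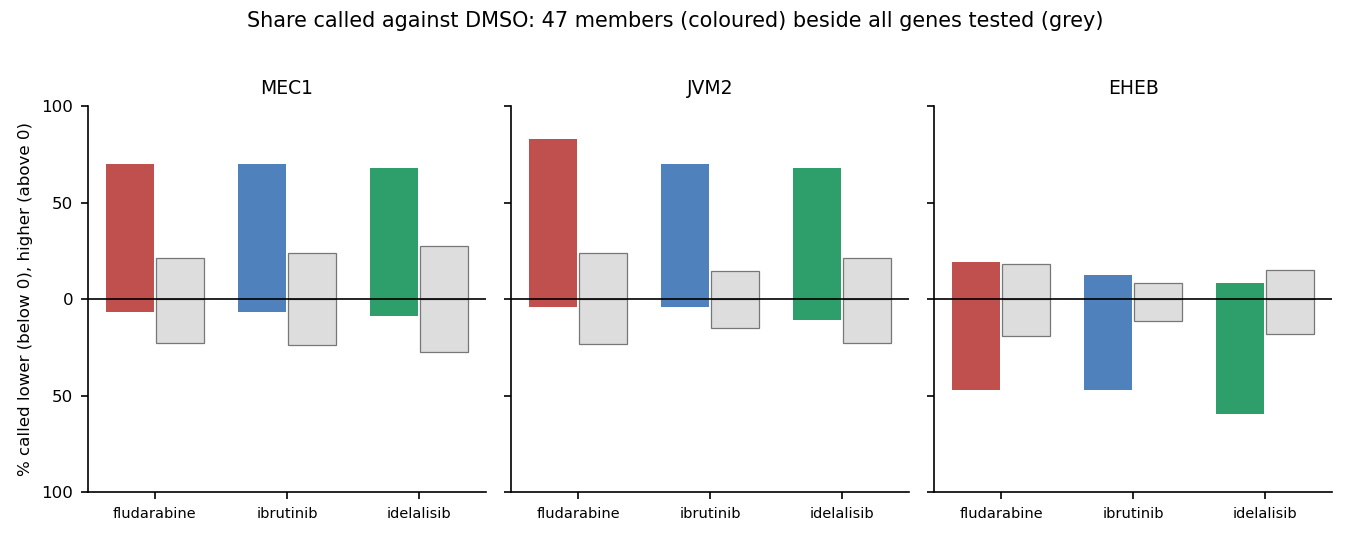
Share of the 47 genes called higher (above zero) or lower (below zero) against DMSO with each drug, in per cent, beside the share of all genes tested in the same comparison (grey). The coloured bars above zero exceed the grey bars in MEC1 and JVM2, and in EHEB those below zero do.

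The median log2 fold change of the 47 genes with fludarabine, ibrutinib and idelalisib was 0.61, 0.87 and 0.94 in MEC1, 1.34, 0.51 and 0.69 in JVM2 and −0.22, −0.23 and −0.45 in EHEB. Over all genes tested the medians lay between −0.0014 and 0.081. With GBP5 set at its bound against the empty DMSO libraries of MEC1, the median there was 0.80 with ibrutinib and 0.81 with idelalisib. Every gene was called in at least 1 of the 9 comparisons. In all 6 comparisons of MEC1 and JVM2, 20 genes were higher (42.6%, against 2.08% of all genes): IFIT1, IFIT3, IFIT5, ISG15, IFI35, IFI44L, IFIH1, USP18, RSAD2, HERC6, CMPK2, EPSTI1, XAF1, GBP4, PARP9, PARP14, SAMD9, SAMD9L, TRIM22 and LGALS3BP. Of these, 15 kept all 6 calls under every other setting tried and with each library left out, and IFIT3, ISG15, RSAD2, XAF1 and LGALS3BP lost at least 1. In all 3 comparisons of EHEB, 12 genes were lower (25.5%, against 5.14% of all genes): ISG15, OAS1, OAS2, OAS3, IFI35, IFI44, IFITM2, STAT2, CMPK2, EPSTI1, GBP2 and UBE2L6. Here 9 kept all 3 calls, and IFI35, EPSTI1 and GBP2 lost at least 1.

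**Figure D3:**
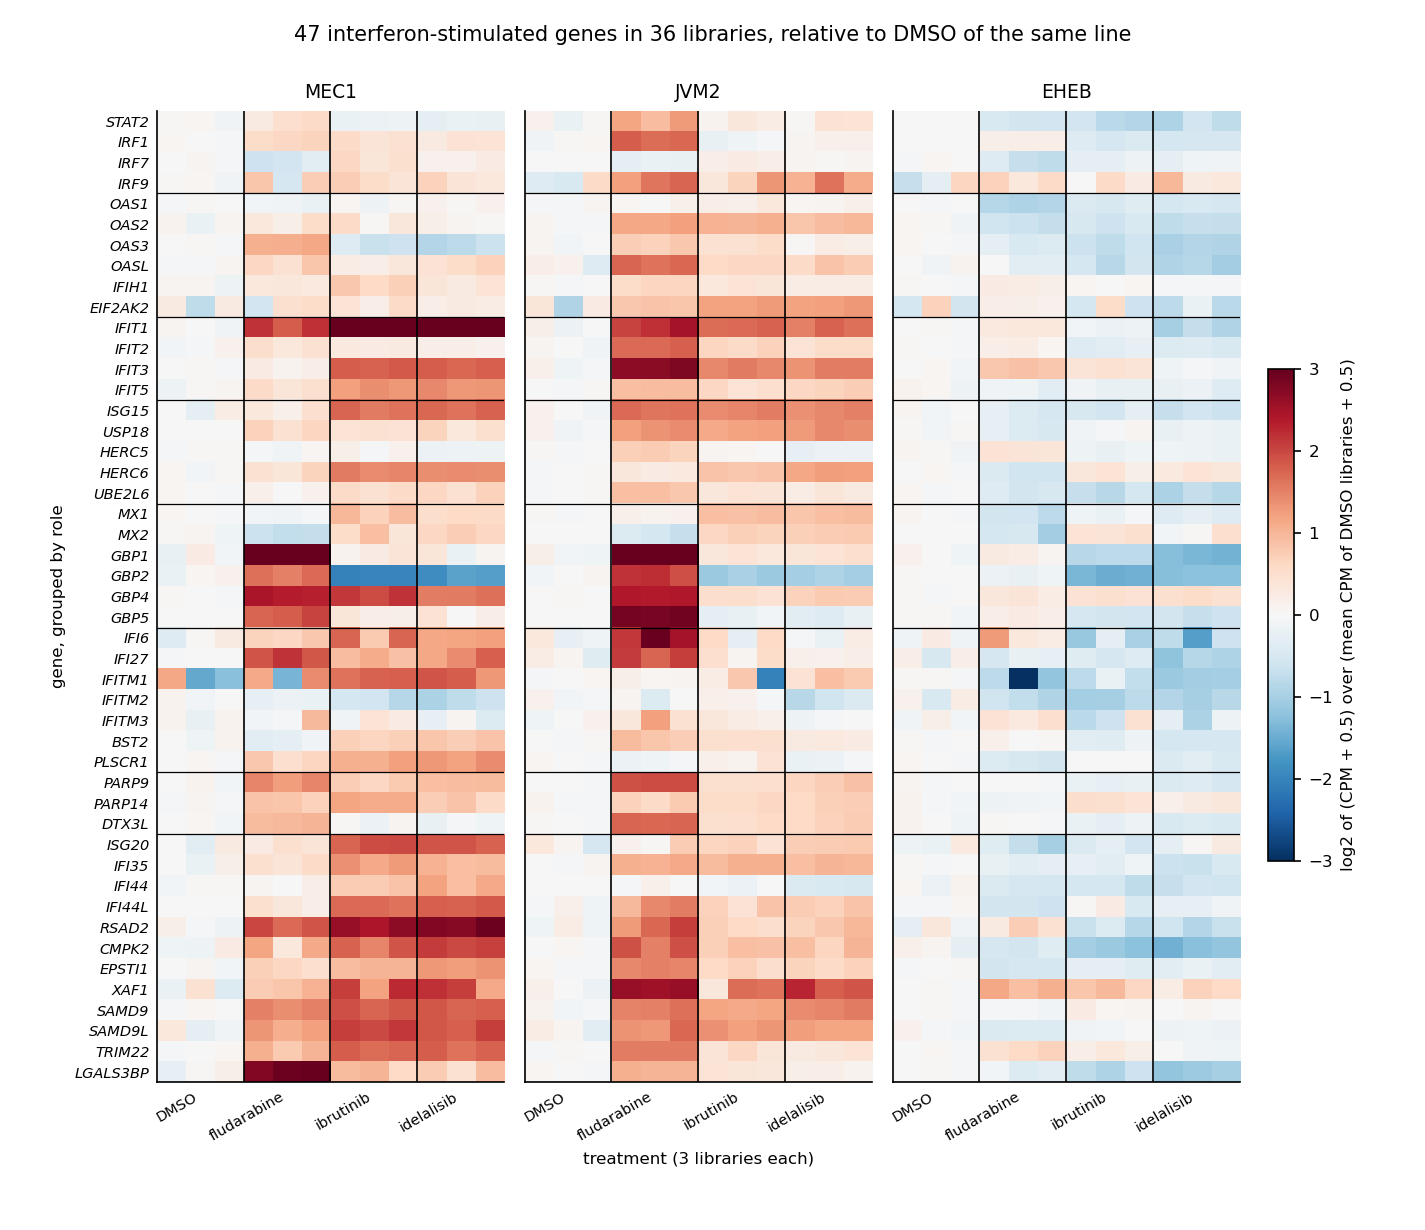
Levels of the 47 genes in the 36 libraries, as log2 of CPM plus 0.5 relative to the mean of the DMSO libraries of the same line plus 0.5, with colours limited at 3 and −3 and genes grouped by role. Red prevails in the treated columns of MEC1 and JVM2 and pale blue in those of EHEB, GBP2 is blue in all kinase inhibitor columns, and IFITM1 varies between libraries of 1 group.

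The transcription factors STAT2, IRF1, IRF7 and IRF9 carry the response from the receptor to these genes. STAT2 stood at 266, 209.8 and 249.4 CPM in the DMSO libraries of JVM2 and at 548, 457 and 583 with fludarabine. In EHEB STAT2 stood at 356, 353 and 346 CPM with DMSO, 255, 238.1 and 237 with fludarabine, 235, 202 and 190.8 with ibrutinib and 185.8, 236 and 209 with idelalisib. The fludarabine libraries lay above DMSO in JVM2, and all treated libraries lay below it in EHEB. With ibrutinib and idelalisib the JVM2 values were 259, 305 and 280.6 and 247, 325 and 324 CPM, which overlapped DMSO. The log2 fold changes were 1.13 ± 0.13 (SE, adjusted p = 3.55e-05) in JVM2 and −0.53, −0.75 and −0.74 in EHEB (adjusted p = 0.000762, 0.000219 and 9.26e-05). In MEC1 STAT2 stood at 141, 142.2 and 128 CPM with DMSO, 164, 196 and 203 with fludarabine, 119.8, 121 and 123 with ibrutinib and 114, 119 and 117 with idelalisib. It rose with fludarabine by 0.45 ± 0.077, adjusted p = 0.00061, and fell with idelalisib (−0.23 ± 0.077, adjusted p = 0.0235), a call that ended without any of 3 of the 6 libraries (adjusted p up to 0.0728).

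IRF1, which binds ISRE-like sites and is itself induced through the GAS, stood at 70.7, 78.2 and 78.3 CPM with DMSO in JVM2, 269.9, 243 and 251 with fludarabine, 65.1, 69.2 and 73.6 with ibrutinib and 79.7, 84.7 and 83.6 with idelalisib. The fludarabine libraries lay far above all others of JVM2, with a log2 fold change of 1.75 ± 0.064, adjusted p = 5.45e-09, and neither kinase inhibitor passed the test. The MEC1 values were 70.5, 66.5 and 64.6 CPM with DMSO, 99.4, 103 and 108 with fludarabine, 100.01, 88.5 and 91.8 with ibrutinib and 81.2, 91.4 and 89.3 with idelalisib, and the gene rose with all 3 drugs (log2 fold changes 0.62, 0.48 and 0.38). In EHEB it stood at 153, 154 and 156 CPM with DMSO, 174, 176 and 178 with fludarabine, 118, 109 and 114 with ibrutinib and 107, 109 and 109 with idelalisib. There it rose with fludarabine (0.19 ± 0.043, adjusted p = 0.00448) and fell with ibrutinib (−0.44 ± 0.043, adjusted p = 5.5e-05) and idelalisib (−0.51 ± 0.043, adjusted p = 5.98e-06).

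IRF7, which drives the later wave of interferon genes, stood at 104, 111 and 100.5 CPM with DMSO in MEC1, 68.8, 70.5 and 83.6 with fludarabine, 161, 134.9 and 146 with ibrutinib and 116, 116 and 124 with idelalisib. It fell with fludarabine in all 3 lines, with log2 fold changes of −0.50 ± 0.088, adjusted p = 0.000753, for MEC1, −0.23 ± 0.043, adjusted p = 0.00115, for JVM2 and −0.61 ± 0.10, adjusted p = 0.000395, for EHEB. In JVM2 the IRF7 values were 57.3, 56.2 and 56.6 CPM with DMSO, 47.2, 49.4 and 48.6 with fludarabine, 65.0, 67.2 and 65.3 with ibrutinib and 60.2, 57.9 and 60.5 with idelalisib, and with library size scaling the fall with fludarabine was not called (−0.030, adjusted p = 0.648). In EHEB they were 89.2, 97.9 and 93.4 CPM with DMSO, 71.3, 57.7 and 54.6 with fludarabine, 76.3, 78.0 and 84.7 with ibrutinib and 77.7, 85.4 and 86.9 with idelalisib. Ibrutinib raised IRF7 in MEC1 (0.48 ± 0.088, adjusted p = 0.000864) and JVM2 (0.21 ± 0.043, adjusted p = 0.00348), and with idelalisib the log2 fold changes were 0.17, 0.070 and −0.17 for MEC1, JVM2 and EHEB, none of them called.

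IRF9, the DNA-binding part of the type I interferon complex, varied between libraries of a group. It stood at 29.4, 28.0 and 57.8 CPM with DMSO in JVM2, 90.8, 117 and 129 with fludarabine, 49.1, 61.4 and 97.2 with ibrutinib and 80.1, 119.8 and 83.4 with idelalisib. The fludarabine and idelalisib libraries lay above all DMSO libraries, with log2 fold changes of 1.55 ± 0.32, adjusted p = 0.00235 and 1.297 ± 0.32, adjusted p = 0.00722. In MEC1 IRF9 stood at 35.6, 36.1 and 32.3 CPM with DMSO, 62.5, 24.2 and 58.6 with fludarabine, 58.2, 51.1 and 45.3 with ibrutinib and 56.7, 45.7 and 43.2 with idelalisib. In EHEB IRF9 stood at 50.7, 67.7 and 128 CPM with DMSO, 133.6, 103 and 122 with fludarabine, 81.6, 123 and 97.0 with ibrutinib and 164, 98.6 and 102 with idelalisib. None of these 6 comparisons was called, with log2 fold changes between 0.29 and 0.57, nor was ibrutinib in JVM2 (0.85 ± 0.32, adjusted p = 0.0712). Another protein-coding gene on the same strand and an RNA on the other strand overlap IRF9 in the annotation, and their share of its counts was not tested.

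**Figure D4:**
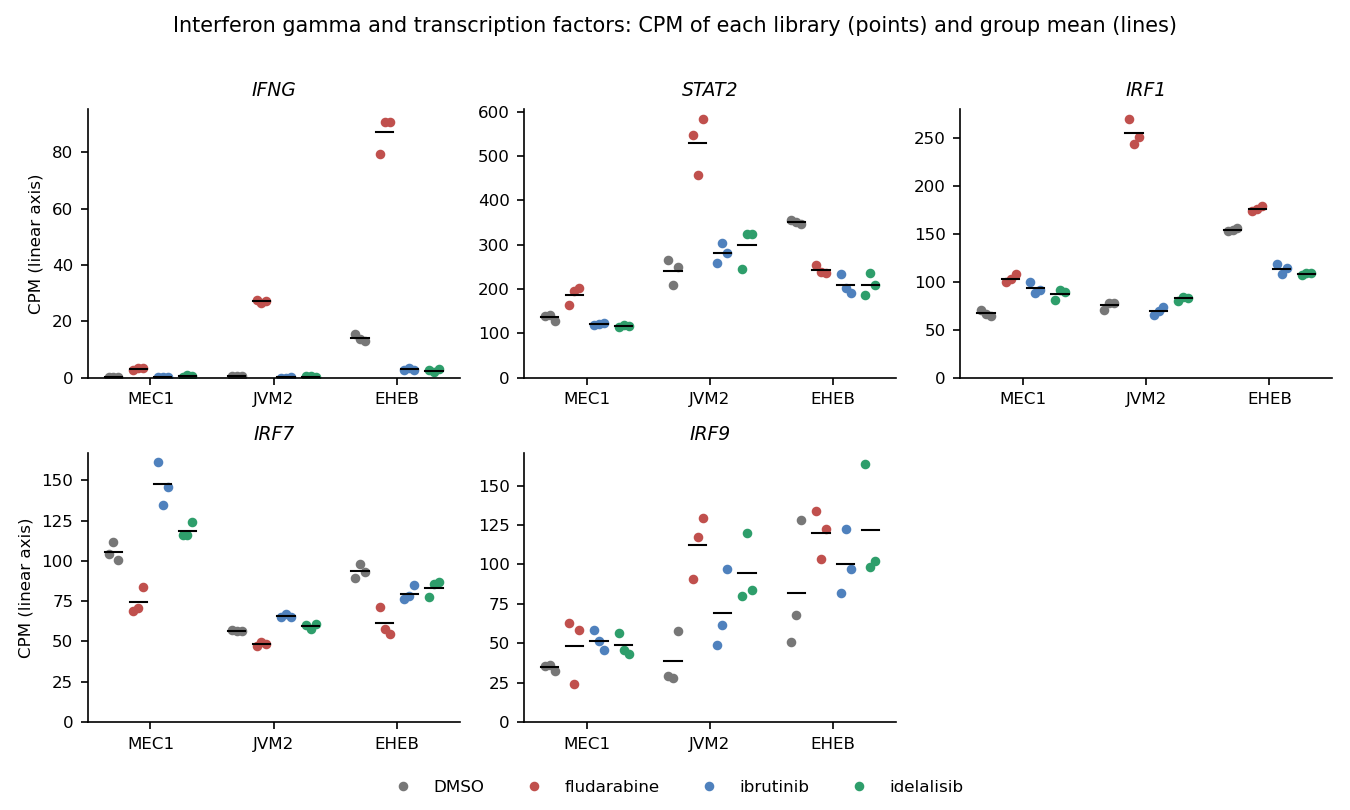
CPM (linear axes) of IFNG and the transcription factors STAT2, IRF1, IRF7 and IRF9 in each library (points) with the mean of each group (lines). IFNG and IRF1 peak with fludarabine in EHEB and JVM2, STAT2 rises with fludarabine in MEC1 and JVM2 but falls with all drugs in EHEB, and the IRF9 points of a group lie far apart.

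The IFIT proteins bind viral RNA and block its translation. IFIT1 stood at 3.45, 3.31 and 2.99 CPM with DMSO in MEC1 and at 16.3, 12.7 and 16.7 with fludarabine, 33.3, 31.7 and 38.3 with ibrutinib and 44.3, 34.5 and 42.1 with idelalisib. Every treated library of MEC1 lay above DMSO, and the kinase inhibitor libraries lay above those with fludarabine. The log2 fold changes were 2.23 ± 0.14, adjusted p = 5.23e-07, with fludarabine, 3.40 ± 0.14, adjusted p = 3.57e-08, with ibrutinib and 3.63 ± 0.14, adjusted p = 2.17e-08, with idelalisib. In JVM2 IFIT1 stood at 5.47, 4.21 and 4.77 CPM with DMSO, 21.3, 23.9 and 29.3 with fludarabine, 16.5, 16.7 and 17.6 with ibrutinib and 14.7, 17.7 and 16.3 with idelalisib, all called (log2 fold changes 2.37, 1.82 and 1.75). The EHEB values were 35.9, 36.9 and 34.8 CPM with DMSO and 44.1, 44.6 and 45.1 with fludarabine, 34.0, 31.6 and 32.0 with ibrutinib and 17.6, 21.7 and 19.1 with idelalisib. EHEB held a higher DMSO level than the other lines, and IFIT1 rose there with fludarabine (0.31 ± 0.076, adjusted p = 0.0067) and fell with idelalisib (−0.88 ± 0.077, adjusted p = 7.43e-06).

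IFIT3, a partner of IFIT1, stood at 26.2, 21.3 and 22.8 CPM with DMSO in JVM2 and 153, 156 and 168 with fludarabine, 64.9, 69.7 and 65.0 with ibrutinib and 60.7, 69.4 and 68.8 with idelalisib. It rose in JVM2 by 2.76, 1.51 and 1.502 on the log2 scale, without overlap. In MEC1 the rise was 1.82 and 1.79 with the kinase inhibitors and 0.18 with fludarabine, a call that ended when any of 4 of the 6 libraries was left out (adjusted p up to 0.0874). All 4 IFIT genes rose in 5 of the 6 comparisons of MEC1 and JVM2, the exception being idelalisib in MEC1, where IFIT2 was not called (0.18 ± 0.077, adjusted p = 0.0656). The rise of IFIT2 with ibrutinib in MEC1 (0.28) ended without either of 2 of 6 libraries (adjusted p up to 0.0531). In EHEB IFIT1 and IFIT3 rose with fludarabine, IFIT3 rose and IFIT2 fell with ibrutinib, and IFIT1, IFIT2 and IFIT5 fell with idelalisib, where the call of IFIT5 (−0.26) ended without any of 4 of 6 libraries (adjusted p up to 0.174).

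ISG15 is a ubiquitin-like protein that UBE2L6 and HERC5 attach to other proteins and USP18 removes. It stood at 66.0, 54.8 and 76.3 CPM with DMSO in MEC1, 81.7, 72.9 and 93.0 with fludarabine, 221, 195 and 206 with ibrutinib and 219.7, 205 and 225 with idelalisib. In JVM2 it stood at 61.3, 55.6 and 52.4 CPM with DMSO, 183, 174 and 174 with fludarabine, 152, 157 and 166 with ibrutinib and 148, 155 and 163 with idelalisib. In EHEB the DMSO libraries held 247, 221 and 231 CPM, above 195, 176 and 165 with fludarabine, 166, 158 and 189.7 with ibrutinib and 143.8, 156 and 149.8 with idelalisib. Kinase inhibitor libraries of the 3 lines lay within a narrower range than the DMSO libraries, and with fludarabine in MEC1 the values overlapped those with DMSO. The log2 fold changes with fludarabine, ibrutinib and idelalisib were 0.33, 1.66 and 1.72 in MEC1, 1.65, 1.49 and 1.46 in JVM2 and −0.38, −0.45 and −0.64 in EHEB. All 9 were called, with adjusted p from 0.0405 for fludarabine in MEC1 to 8.28e-09 for fludarabine in JVM2, and the former call ended without any of 4 of its 6 libraries (adjusted p up to 0.165).

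Among the other genes of the ISG15 system, HERC6, a relative of HERC5, rose in all 6 comparisons of MEC1 and JVM2 (log2 fold changes 0.30 to 1.52), and so did USP18 (0.44 to 1.41). UBE2L6 rose in 5 of these 6 and fell in all 3 of EHEB (−0.47, −0.68 and −0.84). HERC5 was called in 4 of the 9 comparisons, higher with fludarabine in JVM2 (0.72) and EHEB (0.39) and lower with idelalisib in the same lines (−0.20 and −0.17). The last of these ended without any of 5 of 6 libraries (adjusted p up to 0.202), and both falls were not called with library size scaling.

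The guanylate-binding proteins, GTPases that attack intracellular microbes and are induced strongly by interferon gamma, included some of the largest rises with fludarabine. GBP1 stood at 1.14, 1.79 and 1.32 CPM with DMSO in MEC1, 21.6, 19.6 and 22.3 with fludarabine, 1.58, 1.79 and 2.002 with ibrutinib and 1.96, 1.18 and 1.52 with idelalisib. In JVM2 GBP1 stood at 26.9, 22.6 and 21.9 CPM with DMSO, 219, 226 and 216 with fludarabine, 30.4, 31.8 and 29.9 with ibrutinib and 31.0, 31.9 and 33.7 with idelalisib. In both lines the fludarabine libraries stood alone, with log2 fold changes of 3.89 ± 0.21, adjusted p = 2.02e-07 in MEC1 and 3.21 ± 0.079, adjusted p = 3.01e-10 in JVM2, against 0.33, 0.12, 0.37 and 0.44 with the kinase inhibitors. In EHEB GBP1 stood at 104, 95.04 and 86.7 CPM with DMSO, 114, 110.3 and 101 with fludarabine, 53.2, 54.7 and 55.3 with ibrutinib and 38.8, 36.7 and 35.3 with idelalisib. It did not pass the test with fludarabine there (0.19 ± 0.073, adjusted p = 0.0663) and fell with ibrutinib (−0.81 ± 0.074, adjusted p = 3.86e-05) and idelalisib (−1.36 ± 0.075, adjusted p = 2.82e-07).

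GBP2 was the only gene of the 47 that rose with fludarabine and fell with both kinase inhibitors in MEC1 and JVM2, and it kept these 6 calls under every setting tried and with each library left out. It stood at 19.7, 23.7 and 25.2 CPM with DMSO in MEC1, 72.5, 66.2 and 75.0 with fludarabine, 5.26, 5.38 and 5.396 with ibrutinib and 5.93, 7.14 and 6.90 with idelalisib. The JVM2 values were 115, 122 and 128 CPM with DMSO, 546, 564 and 465 with fludarabine, 56.3, 61.9 and 56.4 with ibrutinib and 59.8, 63.9 and 60.3 with idelalisib. The groups did not overlap, with MEC1 log2 fold changes of 1.64, −2.097 and −1.78 and JVM2 values of 2.11, −1.07 and −0.99 (largest adjusted p = 5.82e-06). In EHEB the DMSO libraries held 57.3, 56.0 and 55.4 CPM, with 50.01, 48.5 and 51.4 under fludarabine, 21.5, 19.7 and 20.5 under ibrutinib and 22.8, 23.8 and 23.6 under idelalisib. The falls in EHEB were −1.45 and −1.26 with the kinase inhibitors and −0.17 with fludarabine, the last of which ended without any of 4 of its 6 libraries (adjusted p up to 0.0993). GBP2 overlaps GBP7 on the same strand in the annotation.

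GBP4 stood at 14.8, 14.4 and 14.1 CPM with DMSO in MEC1, 81.4, 75.5 and 75.1 with fludarabine, 64.2, 58.0 and 66.5 with ibrutinib and 42.9, 43.7 and 46.6 with idelalisib, a rise of 2.42, 2.12 and 1.62 on the log2 scale. In JVM2 it stood at 119, 124 and 118 CPM with DMSO, 641, 629.9 and 641 with fludarabine, 173, 173 and 163 with ibrutinib and 194, 208 and 205 with idelalisib. In EHEB GBP4 stood at 83.2, 80.3 and 81.4 CPM with DMSO, 104, 107 and 95.8 with fludarabine, 110.1, 114 and 109.7 with ibrutinib and 114, 120.4 and 112 with idelalisib, with log2 fold changes of 0.32 ± 0.053, adjusted p = 0.000603, 0.45 ± 0.053, adjusted p = 0.000187, and 0.50 ± 0.053, adjusted p = 3.23e-05. GBP4 and XAF1 were the genes higher in all 9 comparisons, as were 49 of 15181 genes tested in all lines (0.323%), and GBP4 kept every call in all alternatives.

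GBP5 had 0, 0 and 0 counts with DMSO in MEC1, 41, 49 and 46 with fludarabine, 7, 3 and 3 with ibrutinib and 6, 0 and 3 with idelalisib. Against the floor it was at least 17.7-fold higher with fludarabine, and the few counts with the kinase inhibitors, although called, allow no fold change. The JVM2 values were 48.8, 47.8 and 47.98 CPM with DMSO, 355, 350.4 and 362 with fludarabine, 39.6, 41.4 and 45.4 with ibrutinib and 38.5, 37.05 and 41.1 with idelalisib. The rise with fludarabine was 2.88 ± 0.060, adjusted p = 1.15e-10, and the falls were −0.19 ± 0.056, adjusted p = 0.0241 with ibrutinib, which ended without any of 5 of 6 libraries (adjusted p up to 0.115), and −0.31 ± 0.056, adjusted p = 0.00105 with idelalisib. In EHEB the log2 fold changes were 0.21 with fludarabine, a call that ended without either of 2 of 6 libraries (adjusted p up to 0.0672), −0.55 with ibrutinib and −0.63 with idelalisib. MX1 and MX2 are dynamin-like GTPases that trap viral capsids. With the kinase inhibitors both rose in MEC1 and JVM2 (log2 fold changes 0.56 to 0.90), as GBP4 did. With fludarabine MX2 fell in all 3 lines (−0.70, −0.53 and −0.66 for MEC1, JVM2 and EHEB). In this MX2 differed from GBP1, GBP2, GBP4 and GBP5, which rose with fludarabine in MEC1 and JVM2.

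Among the RNA sensors and RNA-activated enzymes, IFIH1, the RNA helicase known as MDA5, rose in all 6 comparisons of MEC1 and JVM2 (log2 fold changes 0.22 to 0.71). The OAS enzymes make oligoadenylates that activate RNase L. In JVM2 OAS2 rose with all 3 drugs (1.18, 1.05 and 0.92), whereas in MEC1 it did not pass the test with any (0.35, 0.33 and 0.10). OAS3 stood at 109, 109 and 104 CPM with DMSO in MEC1, 225, 227 and 239.9 with fludarabine, 82.5, 67.5 and 70.1 with ibrutinib and 57.8, 61.9 and 67.9 with idelalisib. It rose with fludarabine (1.10 ± 0.083, adjusted p = 1.74e-06) and fell with ibrutinib (−0.55 ± 0.082, adjusted p = 0.000233) and idelalisib (−0.78 ± 0.083, adjusted p = 1.16e-05), without overlap. In EHEB OAS1, OAS2 and OAS3 fell with all 3 drugs, and OAS1 stood at 124, 121 and 125 CPM with DMSO and 68.1, 65.1 and 66.7 with fludarabine (−0.89 ± 0.049, adjusted p = 1.74e-07). EIF2AK2, the RNA-activated kinase PKR, rose in JVM2 by 0.83 to 1.24 and did not pass the test in MEC1 or EHEB. Its libraries within a group differed by up to 2.19-fold in MEC1, 2.38-fold in EHEB and 2.42-fold in JVM2. OASL, a relative of the OAS enzymes, rose in 5 of the 6 comparisons of MEC1 and JVM2 (0.59 to 1.78) and fell in EHEB with ibrutinib (−0.66) and idelalisib (−0.98). ISG20, an RNA exonuclease, rose with all 3 drugs in MEC1 (0.38, 1.92 and 1.86), and its call with fludarabine ended without any of 4 of 6 libraries (adjusted p up to 0.14). OAS1, OAS2 and OAS3 overlap an RNA on the other strand, and as no source used here says that reads were counted by strand, its share cannot be told apart.

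PARP9 and DTX3L, which form a complex that adds ADP-ribose and ubiquitin to proteins, and PARP14 made up the next group. All 3 rose with fludarabine in MEC1 (1.41, 0.99 and 0.79) and with each drug in JVM2 (0.49 to 1.95 for PARP9). With the kinase inhibitors in MEC1, PARP9 rose by 0.73 and 0.94 while DTX3L, which starts next to it on the other strand, stood at −0.013 and −0.14, neither called. In EHEB PARP9 and DTX3L fell with ibrutinib and idelalisib (−0.21 to −0.44), and PARP14 rose with both (0.48 and 0.25). The fall of DTX3L with ibrutinib ended without any of 4 of 6 libraries (adjusted p up to 0.153).

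The small membrane proteins were the most uneven group. IFITM1 had 10228, 1727 and 1632 counts in the DMSO libraries of MEC1 and was called in 1 of the 9 comparisons, lower with fludarabine in EHEB, where it stood at 171, 169.8 and 159 CPM with DMSO and 96.6, 15.5 and 73.2 with fludarabine (−1.44 ± 0.46, adjusted p = 0.0303). A single treated library, at 15.5 CPM, lay far below the others, and the call ended without any of 4 of the 6 libraries (adjusted p up to 0.0637). IFITM2 stood at 32.2, 21.5 and 34.7 CPM with DMSO and 14.4, 14.6 and 17.0 with ibrutinib in EHEB, a log2 fold change of −0.94 ± 0.16, adjusted p = 0.00203. It rose in none of the 9 comparisons and fell in 6, and IFITM3 rose in 1. IFITM1, IFITM2 and IFITM3 are neighbouring near-copies that block virus entry, and reads shared between them could have been assigned to any of them. BST2 stood at 118, 109 and 128 CPM with DMSO in MEC1, 93.8, 96.5 and 109.9 with fludarabine, 194, 184.8 and 195 with ibrutinib and 211, 198 and 214 with idelalisib. It rose with the kinase inhibitors (0.70 and 0.81) and fell with fludarabine (−0.24 ± 0.076, adjusted p = 0.025), a call that library size scaling turned to 0.012 (adjusted p = 0.902) and that ended without any of 4 of 6 libraries. IFI27 rose with all 3 drugs in MEC1 (2.31, 1.21 and 1.77) and with fludarabine in JVM2 (2.18). IFI6, a membrane protein that limits cell death, rose with all 3 drugs in MEC1 (0.71, 1.52 and 1.21) and with fludarabine in JVM2 (2.59), and its call with fludarabine in MEC1 ended without any of 4 of 6 libraries (adjusted p up to 0.103). PLSCR1, a phospholipid scramblase, rose with all 3 drugs in MEC1 (0.67 to 1.34).

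The 12 other effectors mostly rose in both lines. In MEC1 fludarabine raised 11 of them and each kinase inhibitor 12, and in JVM2 fludarabine raised 10, ibrutinib 10 and idelalisib 11. RSAD2 stood at 2.55, 2.12 and 1.94 CPM with DMSO in MEC1, 10.3, 8.32 and 9.499 with fludarabine, 16.1, 14.0 and 16.9 with ibrutinib and 18.2, 17.4 and 20.4 with idelalisib. All treated libraries lay above DMSO, with log2 fold changes of 2.09 ± 0.14, 2.83 ± 0.14 and 3.08 ± 0.14 (largest adjusted p = 6.6e-07). In JVM2 RSAD2 had 37, 60 and 77 counts with fludarabine, 21, 11 and 12 with ibrutinib and 14, 19 and 31 with idelalisib. The call with ibrutinib ended without any of 5 of its 6 libraries (adjusted p up to 0.0885).

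CMPK2 stood at 6.64, 6.59 and 8.88 CPM with DMSO in MEC1, 17.3, 9.27 and 16.7 with fludarabine, 26.4, 21.2 and 28.8 with ibrutinib and 33.0, 30.4 and 32.2 with idelalisib. In JVM2 it stood at 1.70, 1.77 and 1.59 CPM with DMSO, 7.73, 5.75 and 7.86 with fludarabine, 3.09, 3.58 and 3.50 with ibrutinib and 3.59, 2.95 and 3.92 with idelalisib. In EHEB CMPK2 stood at 22.1, 21.0 and 16.2 CPM with DMSO, 13.7, 13.3 and 15.1 with fludarabine, 9.48, 8.90 and 8.07 with ibrutinib and 7.01, 8.01 and 8.42 with idelalisib. Treated libraries lay above DMSO in MEC1 and JVM2 and below it in EHEB throughout. The log2 fold changes were 0.97, 1.79 and 2.11 in MEC1, 2.07, 1.004 and 1.05 in JVM2 and −0.49, −1.16 and −1.34 in EHEB, with a largest adjusted p of 0.00956.

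EPSTI1 stood at 41.1, 44.5 and 39.6 CPM with DMSO in MEC1, 68.4, 64.9 and 59.2 with fludarabine, 80.1, 84.98 and 85.4 with ibrutinib and 103, 99.6 and 106 with idelalisib. In JVM2 its values were 37.3, 35.4 and 35.4 CPM with DMSO, 98.9, 104 and 101 with fludarabine, 55.2, 58.5 and 52.0 with ibrutinib and 57.1, 54.0 and 58.7 with idelalisib. In EHEB they were 74.0, 75.1 and 77.6 CPM with DMSO, 51.4, 53.5 and 52.4 with fludarabine, 62.4, 61.9 and 58.6 with ibrutinib and 59.3, 66.0 and 60.0 with idelalisib. The gene was above DMSO in every treated library of MEC1 and JVM2 and below it in every treated library of EHEB, where its falls with ibrutinib and idelalisib were not called with library size scaling (adjusted p = 0.0546 and 0.0549). IFI35 followed the same course, with DMSO values of 23.3, 20.1 and 26.1 CPM in MEC1, 21.2, 20.3 and 22.4 in JVM2 and 69.8, 66.6 and 69.0 in EHEB. Its log2 fold changes with fludarabine, ibrutinib and idelalisib were 0.49, 1.29 and 0.98 in MEC1, 1.10, 1.04 and 0.99 in JVM2 and −0.28, −0.23 and −0.59 in EHEB. The fall with ibrutinib in EHEB (−0.23 ± 0.074, adjusted p = 0.0487) ended without any of 5 of its 6 libraries (adjusted p up to 0.193).

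XAF1, which promotes cell death by opposing the inhibitor XIAP, stood at 9.73, 15.4 and 8.34 CPM with DMSO in MEC1, 19.1, 20.2 and 23.4 with fludarabine, 48.5, 26.4 and 54.8 with ibrutinib and 52.6, 48.2 and 25.3 with idelalisib. The JVM2 values were 6.73, 5.88 and 5.26 CPM with DMSO, 39.1, 36.9 and 39.2 with fludarabine, 7.61, 20.2 and 19.4 with ibrutinib and 31.0, 21.9 and 23.5 with idelalisib. In EHEB it stood at 55.7, 57.1 and 53.8 CPM with DMSO, 125, 104 and 117 with fludarabine, 99.6, 110.3 and 86 with ibrutinib and 65.4, 90.4 and 83.9 with idelalisib. Every treated library lay above every DMSO library of its line. The smallest of the 9 log2 fold changes was 0.52 ± 0.12, adjusted p = 0.00698, with idelalisib in EHEB, and the largest 2.69 ± 0.31, adjusted p = 3.42e-05, with fludarabine in JVM2. The rise with fludarabine in MEC1 (0.90 ± 0.33, adjusted p = 0.0441) ended without any of 5 of its 6 libraries (adjusted p up to 0.147).

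LGALS3BP stood at 0.219, 0.375 and 0.451 CPM with DMSO in MEC1, 5.31, 6.03 and 6.55 with fludarabine, 1.14, 1.21 and 0.783 with ibrutinib and 0.949, 0.662 and 1.12 with idelalisib. The rise with fludarabine was 4.09 ± 0.31, adjusted p = 1.82e-06, from 9, 17 and 16 counts with DMSO. In JVM2 LGALS3BP stood at 95.005, 90.2 and 88.4 CPM with DMSO, 193, 184.99 and 184.2 with fludarabine, 122, 118 and 115 with ibrutinib and 103, 106 and 98.9 with idelalisib. In EHEB the values were 86.3, 89.8 and 85.1 CPM with DMSO, 82.4, 65.3 and 69.5 with fludarabine, 51.2, 45.3 and 56.4 with ibrutinib and 38.05, 40.6 and 43.3 with idelalisib, falling with ibrutinib (−0.77) and idelalisib (−1.10). The rise with idelalisib in JVM2 (0.17 ± 0.046, adjusted p = 0.0127) ended without any of 1 of 6 libraries (adjusted p up to 0.0589). SAMD9 and SAMD9L, which restrain growth and poxviruses, rose in all 6 comparisons of MEC1 and JVM2, by 1.18 to 1.86 and 1.22 to 2.07. In EHEB SAMD9 had log2 fold changes of −0.081 to 0.13, none of them called, and SAMD9L fell with fludarabine (−0.42). TRIM22, an antiviral ubiquitin ligase, rose in the same 6 comparisons (0.35 to 1.75) and also in EHEB with fludarabine (0.58) and ibrutinib (0.24), where the latter call ended without any of 4 of 6 libraries (adjusted p up to 0.098). IFI44 stood at 57.0, 61.5 and 61.8 CPM with DMSO in MEC1 and 139, 114 and 133.04 with idelalisib (1.10), and in JVM2 at 47.3, 46.7 and 46.9 with DMSO and 34.8, 34.2 and 33.6 with idelalisib (−0.46), while IFI44L rose in both lines with every drug.

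**Figure D5:**
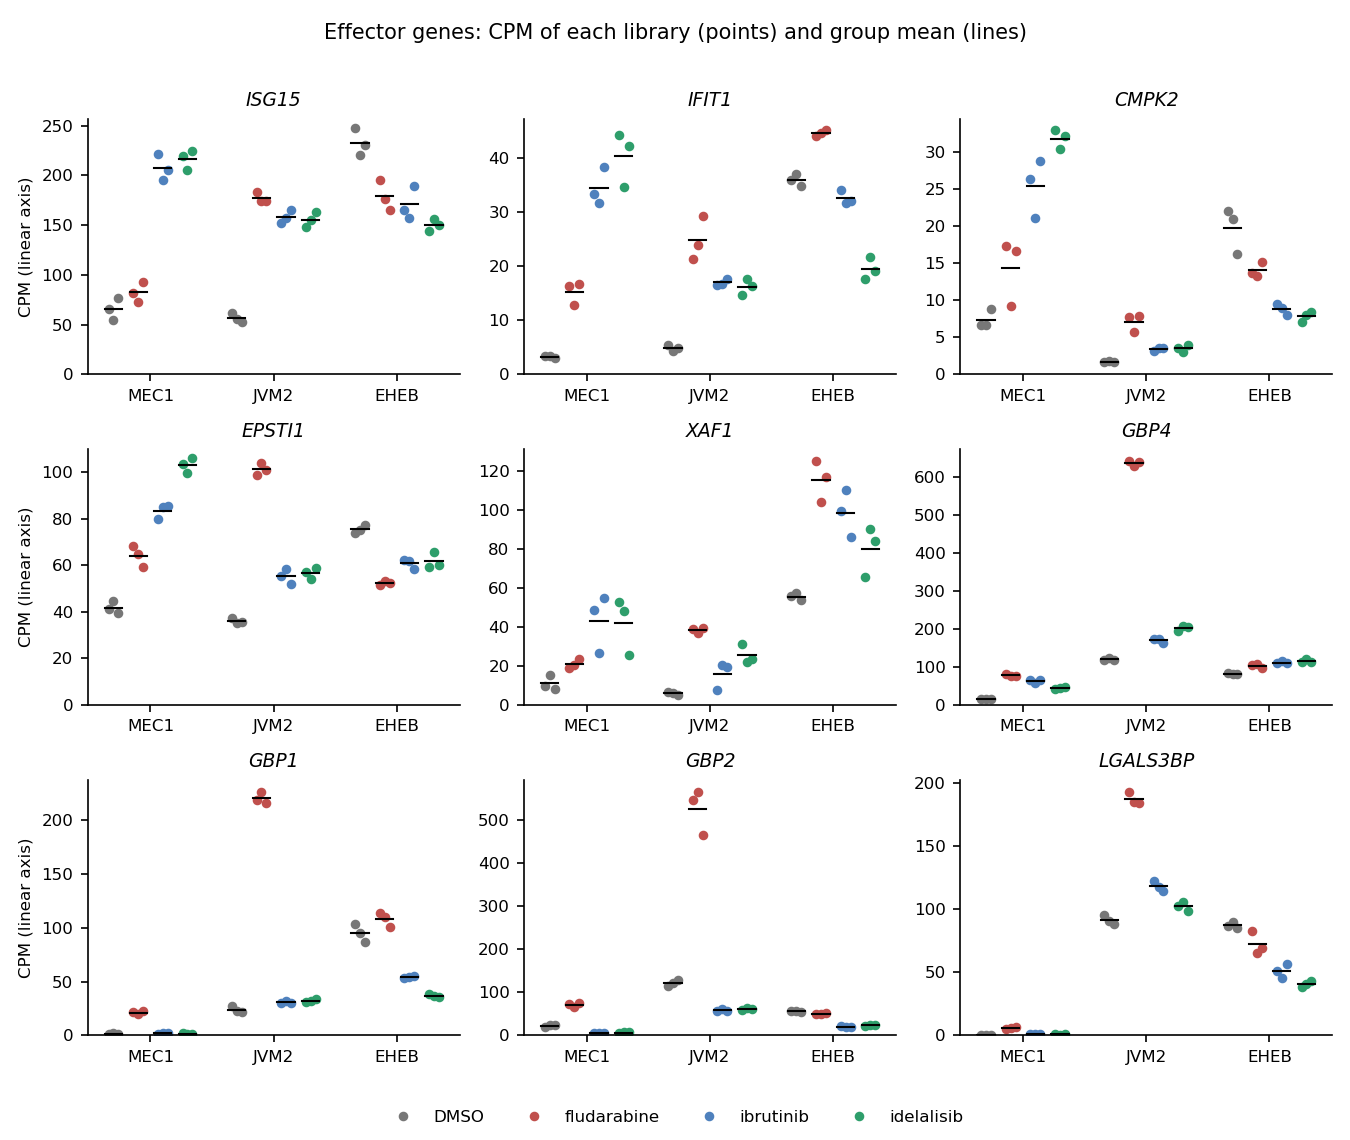
CPM (linear axes) of 9 effector genes in each library (points) with the mean of each group (lines). CMPK2, ISG15 and EPSTI1 rise from DMSO in MEC1 and JVM2 and fall in EHEB, XAF1 and GBP4 rise in all 3 lines, and GBP1 and GBP2 peak with fludarabine in JVM2.

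The interaction of line and treatment tested whether a drug acted differently in a pair of lines. Between MEC1 and JVM2, 29 of 47 genes differed in their response to fludarabine (all genes: 25.2%), 28 to ibrutinib (25.9%) and 25 to idelalisib (35.0%). Between MEC1 and EHEB, 37 genes differed with fludarabine (29.4%), 37 with ibrutinib (26.4%) and 41 with idelalisib (38%). Between EHEB and JVM2, 42 differed with fludarabine (22.2%), 34 with ibrutinib (12%) and 38 with idelalisib (21.3%). Altogether 31 of the 47 genes (66.0%, against 23.8% of all genes) were called in opposite directions with the same drug in at least 1 pair of lines, and in each such pair the interaction was called. Of the 31, 25 kept both calls of at least 1 pair in every alternative and with each library left out, and GBP2, GBP5, IFIT5, ISG20, OAS1 and RSAD2 did not. Between EHEB and MEC1 the opposite calls covered 13 genes (5.48%) with fludarabine, 13 (2.96%) with ibrutinib and 18 (8.47%) with idelalisib, where the percentages give the share of all genes tested. Between EHEB and JVM2 the counts were 14 (3.11%), 16 (1.78%) and 17 (3.57%). ISG15, IFI35, CMPK2 and EPSTI1 were opposite in EHEB against both other lines with all 3 drugs, and of these CMPK2 kept all its calls in every alternative. Its response differed between MEC1 and EHEB by 1.53 ± 0.29, adjusted p = 0.000939 with fludarabine, 2.95 ± 0.22, adjusted p = 1.72e-07 with ibrutinib and 3.40 ± 0.20, adjusted p = 5.14e-09 with idelalisib.

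MEC1 and JVM2 were opposite for 1 gene with fludarabine, 2 with ibrutinib and 2 with idelalisib, beside 4.77%, 3.96% and 8.96% of all genes. With fludarabine BST2 alone fell in MEC1 and rose in JVM2 (0.85), a difference of −1.05 ± 0.10, adjusted p = 1.35e-06, although its fall in MEC1 was not called with library size scaling. With ibrutinib OAS3 fell in MEC1 and rose in JVM2 (0.49), a difference of −1.06 ± 0.11, adjusted p = 3.71e-06. With idelalisib IFI44 rose in MEC1 and fell in JVM2, a difference of 1.49 ± 0.11, adjusted p = 5.22e-08. GBP5 was also opposite with both kinase inhibitors, on the few counts in MEC1. BST2, OAS3, IFI44 and GBP5 were also opposite between EHEB and another line with at least 1 drug. The same held for the other 23 genes, which were IFIT1, IFIT2, IFIT5, ISG20, MX1, OAS1, OAS2, OASL, IFI27, IFI44L, STAT2, IRF1, USP18, RSAD2, HERC6, GBP1, GBP2, PARP9, DTX3L, SAMD9L, UBE2L6, LGALS3BP and PLSCR1.

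Idelalisib and ibrutinib act on different kinases of the B-cell receptor pathway, and their doses differed, so their levels are set side by side. In MEC1 idelalisib libraries stood higher for 2 genes (6.01% of all genes) and lower for 6 (9.37%). In JVM2 the counts were 6 (8.21%) and 9 (10.5%), and in EHEB 1 (6.77%) and 15 (9.09%). When each library was left out in turn, the counts ran from 0 to 2 higher and 3 to 9 lower in MEC1 and from 7 to 13 lower with 0 higher in EHEB, and library size scaling gave 0 higher and 13 lower in MEC1. The largest differences were GBP4 (−0.50), PARP14 (−0.41) and IFIH1 (−0.36) in MEC1, IFITM2 (−0.70), HERC6 (0.37) and IFI44 (−0.37) in JVM2 and IFIT1 (−0.74), IFI27 (−0.58) and GBP1 (−0.56) in EHEB. The call of IFI27 in EHEB ended without any of its 6 libraries (adjusted p up to 0.142).

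The rest of the pathway was described by 61 genes for ligands, receptors, kinases, sensors and negative regulators, of which 42 were tested in each line. In MEC1 they counted 21 up (50.0%, all genes 21.2%) and 9 down (21.4%, all genes 22.7%) with fludarabine, 16 up (38.1%, all genes 23.7%) and 7 down (16.7%, all genes 23.9%) with ibrutinib, 17 up (40.5%, all genes 27.6%) and 10 down (23.8%, all genes 27.4%) with idelalisib. In JVM2 they counted 24 up (57.1%, all genes 23.9%) and 9 down (21.4%, all genes 23.3%) with fludarabine, 17 up (40.5%, all genes 14.5%) and 4 down (9.52%, all genes 15.0%) with ibrutinib, 19 up (45.2%, all genes 21.6%) and 6 down (14.3%, all genes 22.6%) with idelalisib. In EHEB the counts were 10 up (23.8%, all genes 18.4%) and 12 down (28.6%, all genes 19.2%) with fludarabine, 6 up (14.3%, all genes 8.50%) and 9 down (21.4%, all genes 11.2%) with ibrutinib, 10 up (23.8%, all genes 15.1%) and 15 down (35.7%, all genes 18.2%) with idelalisib. For the genes that fell in MEC1 with fludarabine or idelalisib, or in JVM2 with fludarabine, the share lay near that of all genes. Of the 21 ligands, 2 or 3 were tested in a line. IFNB1 had at most 11 counts in any library, and the genes of type III interferon had at most 12. IFNA2 had 32, 38 and 20 counts with DMSO in MEC1, 36, 32 and 31 with fludarabine, 203, 123 and 177 with ibrutinib and 202, 189 and 250 with idelalisib, and it rose with both kinase inhibitors (2.30 ± 0.23, adjusted p = 9.88e-06 and 2.93 ± 0.23, adjusted p = 1.11e-06). In JVM2 and EHEB IFNA2 had between 3 and 58 counts and was not called.

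IFNG, which encodes interferon gamma, had 5, 15 and 8 counts with DMSO in MEC1, 95, 132 and 101 with fludarabine, 22, 14 and 6 with ibrutinib and 11, 39 and 29 with idelalisib. In JVM2 it had 18, 33 and 29 counts with DMSO, 1234, 1227 and 1180 with fludarabine, 5, 3 and 9 with ibrutinib and 20, 26 and 12 with idelalisib. In EHEB it had 631, 571 and 593 counts with DMSO, 2230, 3041 and 3428 with fludarabine, 127, 116 and 121 with ibrutinib and 77, 90 and 96 with idelalisib. Fludarabine raised IFNG in all 3 lines without overlap, with log2 fold changes of 3.78 ± 0.51, adjusted p = 0.000127, for MEC1, 5.36 ± 0.29, adjusted p = 9.55e-08, for JVM2, and 2.62 ± 0.15, adjusted p = 1.85e-07, for EHEB. With ibrutinib it fell in JVM2 (−2.28 ± 0.40, adjusted p = 0.00159) and EHEB (−2.22 ± 0.15, adjusted p = 5.73e-06) and was not called in MEC1 (0.41 ± 0.53, adjusted p = 0.555). With idelalisib it fell in EHEB (−2.47 ± 0.16, adjusted p = 7.29e-07), was not called in JVM2 (−0.54 ± 0.33, adjusted p = 0.209) and rose in MEC1 (1.54 ± 0.51, adjusted p = 0.0236), where its values overlapped those with DMSO and the call ended without any of 4 of 6 libraries (adjusted p up to 0.0951). T and NK cells are the usual sources of this cytokine, and their part in its level was not tested. Of the T-cell markers CD3D, CD3E, CD3G and CD2, the summed level ran from 0.438 to 0.704 CPM with DMSO and 2.38 to 3.6 with fludarabine in MEC1. It ran from 0 to 0.239 and from 0.224 to 0.511 CPM in JVM2, and from 9.63 to 12.4 and from 11.6 to 15.6 CPM in EHEB. CD3D stayed at or under 0.185 CPM in every library and CD3G at or under 0.212. In contrast, CD3E ran from 1.37 to 5.46 CPM and CD2 from 2.01 to 12.1 CPM over the libraries of EHEB. They reached 1.29 and 2.41 CPM in MEC1 and 0.239 and 0.511 CPM in JVM2. The NK-cell markers NCAM1, KLRD1 and NKG7 summed to 12.1 to 13.3 CPM with DMSO and 18.5 to 20.7 with fludarabine in MEC1, and in JVM2 and EHEB the fludarabine values lay below those with DMSO.

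Among the Janus kinases, JAK2 rose with all drugs in JVM2 (0.79, 0.45 and 0.34) and with fludarabine in MEC1 (0.95), and it fell with all in EHEB (−0.95, −0.28 and −0.56). JAK1 stood at 217.7, 232.2 and 217.35 CPM with DMSO in EHEB and at 314.6, 319.5 and 309.8 with idelalisib. In MEC1 it stood at 605.9, 630.6 and 599.05 CPM with DMSO and 413.6, 459.7 and 453.9 with idelalisib. Idelalisib libraries thus lay above DMSO in EHEB, as in JVM2, and below it in MEC1. With fludarabine JAK1 lay below DMSO in EHEB and JVM2 and overlapped it in MEC1. With ibrutinib it lay below DMSO in MEC1, overlapped it in JVM2 and lay narrowly above it in EHEB. TYK2 rose with all drugs in JVM2 (0.54 to 0.62), with fludarabine in MEC1 (0.48) and EHEB (0.54) and with ibrutinib in EHEB (0.32), a call that ended without 1 of its 6 libraries (adjusted p = 0.0558), and it fell with idelalisib in MEC1 (−0.56). The receptor subunit IFNLR1 fell with all drugs in EHEB (−1.42, −0.95 and −0.64). With fludarabine it rose in MEC1 (0.81) and JVM2 (0.33), and it fell with both kinase inhibitors in MEC1 (−0.85 and −0.56) and with ibrutinib in JVM2 (−0.37). The JVM2 calls ended without any of 3 of 6 libraries (adjusted p up to 0.0613) for fludarabine and without any of 2 of 6 libraries (adjusted p up to 0.0799) for ibrutinib, which was also not called with library size scaling.

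Among sensors and adaptors, DDX58, the RNA helicase RIG-I, rose in all 6 comparisons of MEC1 and JVM2 (0.64 to 1.46), and so did IKBKE, a kinase upstream of IRF activation (0.82 to 1.59), and AIM2, a sensor of cytosolic DNA (0.63 to 2.76). In EHEB DDX58 fell with fludarabine (−0.19) and idelalisib (−0.19), calls that ended without any of 3 of 6 libraries (adjusted p up to 0.0761) and any of 4 of 6 libraries (adjusted p up to 0.132) and with library size scaling. AIM2 fell there with fludarabine (−0.57), and IKBKE rose there with ibrutinib (0.89) and idelalisib (0.74). TMEM173, the adaptor STING, rose with fludarabine by 1.49 in MEC1, 1.297 in JVM2 and 1.17 in EHEB. With idelalisib TMEM173 rose in JVM2 (0.68) and EHEB (0.42), and with ibrutinib it fell in MEC1 (−0.64) and rose in JVM2 and EHEB (both 0.27), where each of the 3 calls with ibrutinib ended without at least 1 library (adjusted p up to 0.052, 0.134 and 0.126). TLR7, an endosomal sensor of RNA, rose with all drugs in MEC1 (0.84 to 1.35) and fell with all in EHEB (−1.33 to −2.48). In JVM2 TLR7 rose with fludarabine and ibrutinib (both 0.24), calls that ended in the fit of both groups alone (adjusted p = 0.0533 and 0.0723). ZBP1, a sensor of Z-form nucleic acid, had 0, 0 and 0 counts with DMSO in JVM2 and 72, 41 and 107 with fludarabine. It rose with fludarabine in MEC1 (3.10) and fell with all drugs in EHEB (−0.74, −1.07 and −1.44). Among negative regulators, SOCS3 rose with fludarabine and fell with idelalisib in all 3 lines (2.27 and −4.20 in MEC1), with the rise in EHEB (0.63) ending without any of 3 of 6 libraries (adjusted p up to 0.0786). Its counts in MEC1 were 80, 87 and 69 with DMSO, 0, 10 and 6 with ibrutinib and 0, 6 and 6 with idelalisib. The size of the fall in MEC1 is therefore uncertain. SAMHD1, which depletes nucleotides, rose in all 6 comparisons of MEC1 and JVM2 (0.91 to 1.64), and TRIM21 did so too (0.22 to 1.51), although its call with idelalisib in MEC1 ended without any of 5 of 6 libraries (adjusted p up to 0.19) and under DESeq2 (adjusted p = 0.0559).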

How the data were processed

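Total RNA of the 36 libraries was sequenced, and the authors deposited 1 table of estimated counts per gene, made per the labels and the study's methods with Trimmomatic, HISAT2 2.1 and StringTie 1.3.4 on hg38, and analysed with edgeR 3.22.5. The annotation release behind the symbols and the strand setting were not given in the sources used here. For all tests, the expected counts were rounded to whole numbers, and 1 entry with a blank symbol (0.00384% of counts) was left out. Low counts lay near multiples of 8/3, so 1 count need not be 1 read.

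Counts were tested with the quasi-likelihood test of edgeR 4.0.16 in R 4.3.3. Comparisons within a line used its 12 libraries, and comparisons of lines used the 9 DMSO libraries. For the interaction of a drug, the fit held its libraries and those with DMSO in all 3 lines. Each fit had its own TMM normalisation, so that CPM with DMSO differ slightly between sections. Genes passed filterByExpr (minimum count 10, minimum total count 15), and p-values were adjusted by Benjamini-Hochberg over all genes tested, with 0.05 as the threshold. The steps were checked on simulated data. The alternatives were DESeq2 1.42.0, RLE size factors, library size scaling, no filter, a fit of both groups alone, each library left out in turn and, chosen after seeing the data, counts divided by 8/3. Python 3.11.15 served for tables and figures, together with matplotlib 3.10.9, numpy 2.4.6 and pandas 2.3.3. Gene positions and overlaps came from GENCODE 44 and promoter windows from RefSeq.

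The genes and lists were chosen with earlier results of these data known. Values of every library were to be printed for the 3 called genes with the largest change in each comparison (average log2 CPM of at least 1 in the line, no overlap between the groups), for genes with the same call in all 9 drug comparisons, for genes with opposite calls in a pair of lines and for STAT2, IRF9, IRF7 and IRF1. As 31 genes had opposite calls, those outside the other conditions are mostly given by name or fold change, and their libraries are drawn in the map of levels. Pathway genes were named among those called in at least 6 of 9 drug comparisons, and 1 gene of that list is not reported here. IFNA2, IFNB1, the genes of type III interferon and the levels of IFI27, IFITM1, IFITM2, BST2, OAS3, UBE2L6 and JAK1 were given after their values were seen.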

Additional observations from a re-analysis of the deposited data

Results flagged for a closer look

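Opposite calls with the same drug in a pair of lines marked the genes below. The interaction of line and drug also had to be called by edgeR's quasi-likelihood test, which held for nearly all genes with opposite calls. Each value is the log2 fold change against DMSO in the first line minus that in the second, and those of ISG15, IFI35, CMPK2 and EPSTI1 are given for the pairs with EHEB, where they were opposite with all 3 drugs.

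With fludarabine the MEC1 response exceeded that of EHEB by 0.78 for ISG15, 0.84 for IFI35, 1.53 for CMPK2 and 1.22 for EPSTI1. The EHEB response minus that of JVM2 was −2.07 for ISG15, −1.42 for IFI35, −2.61 for CMPK2 and −2.06 for EPSTI1. With ibrutinib the MEC1 response exceeded that of EHEB by 2.097 for ISG15, 1.51 for IFI35, 2.95 for CMPK2 and 1.301 for EPSTI1. The EHEB response minus that of JVM2 was −1.95 for ISG15, −1.29 for IFI35, −2.18 for CMPK2 and −0.94 for EPSTI1. With idelalisib the MEC1 response exceeded that of EHEB by 2.31 for ISG15, 1.53 for IFI35, 3.40 for CMPK2 and 1.55 for EPSTI1. The EHEB response minus that of JVM2 was −2.12 for ISG15, −1.60 for IFI35, −2.40 for CMPK2 and −0.96 for EPSTI1.

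Between MEC1 and JVM2 the difference was −1.05 for BST2 with fludarabine, −1.06 for OAS3 with ibrutinib and 1.49 for IFI44 with idelalisib. The fall of BST2 in MEC1 was not called with library size scaling. GBP5 differed by 5.14 with ibrutinib and 4.89 with idelalisib, values that depend on the prior count, since its DMSO libraries in MEC1 had no counts. In each of these differences the line cannot be told apart from the exposure time.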

How the results depend on the processing

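Under DESeq2, RLE size factors and counts divided by 8/3, all 39 counts of called genes stayed within 1.5 times. With library size scaling 6 moved: the genes lowered by fludarabine and by ibrutinib in JVM2 went to 1 each, the genes higher with idelalisib than with ibrutinib to 0 in MEC1 and 0 in EHEB, the genes lower in MEC1 to 13, and those higher in MEC1 than in EHEB with DMSO to 1. That scaling shifted the median log2 fold change of all genes by 0.25 for fludarabine in MEC1, 0.20 in JVM2 and 0.11 in EHEB. It also turned HERC5 with fludarabine in MEC1 from −0.029, not called, to 0.22 (adjusted p = 0.0349). In the fit of both groups alone, 1 gene was lower with ibrutinib in JVM2, and idelalisib against ibrutinib gave 1 higher and 3 lower in MEC1 and 0 higher and 9 lower in EHEB. Without the filter the last comparison gave 0 higher and 8 lower. When single libraries were left out, the counts ran from 1 to 2 for genes lowered by ibrutinib in JVM2, and for idelalisib against ibrutinib from 0 to 2 higher and 3 to 9 lower in MEC1 and from 7 to 13 lower in EHEB, with 0 higher throughout. The cause was not tested. Of 469 calls on single genes, DESeq2 kept 469, RLE size factors 468, counts divided by 8/3 468, library size scaling 446 and no filter 444, and the fit of both groups alone kept 437 of 467. Library size scaling turned 1 call in sign, BST2 with fludarabine in MEC1, from −0.24 to 0.012 (adjusted p = 0.902). With single libraries left out, 198 of 2814 calls were lost. No paired analysis was possible because the library numbers were not shared between groups. With 3 libraries a group, small changes of GBP5 in MEC1 and of RSAD2 in JVM2, which had 0 to 6 counts with DMSO, were not detectable.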
